A study of Mus musculus with 9 samples.

Results

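Mitochondrial biogenesis regulators are the nuclear genes whose products raise or hold the number and oxidative capacity of mitochondria. A set of 9 was taken by gene symbol from the deposited count table of newborn mouse gastrocnemius, a calf muscle, out of 55471 gene IDs: the coactivators Ppargc1a, Ppargc1b and Perm1, the nuclear receptors Esrra, Esrrg and Ppard, the transcription factors Nrf1 and Gabpa, and the mitochondrial DNA factor Tfam. Each symbol matched a single Ensembl ID, and all 9 passed the filter on low counts. No threshold on their values was used to pick them, but earlier results of these data were known when the set was written. Their levels, their covariation between mice and their difference between genotypes are described here.

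The samples were 5 Shank3Δ11(-/-) mice (KO1 to KO5) and 4 Shank3(+/+) mice (WT1 to WT4) at postnatal day 0 to 1, all labelled with the C57BL/6 background. The study bred its knockouts from heterozygous C57BL/6JRj parents. Shank3 is a scaffold protein best known from the postsynaptic density, and the study asked how its loss alters neonatal muscle. The knockout is constitutive, so every tissue of these mice carries it, the brain and the motor neurons included. Each mouse gave 1 RNA-seq library of whole muscle, and the study left KO2 and KO4 out for too few reads. The genotype test therefore used 3 against 4 mice, and the same test over all 9 mice is given beside it.

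PGC-1α, the product of Ppargc1a, binds no DNA itself. It docks on estrogen-related receptors, PPARs, NRF1 and the GABP complex, and these in turn switch on genes of oxidative phosphorylation, fatty acid oxidation and mitochondrial DNA maintenance, Tfam among them. In skeletal muscle the circuit is known for its response to exercise, cold and AMPK signalling, and the oxidative capacity of muscle grows after birth.

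Library totals ranged from 26444372 to 40471957 counts, and the libraries left out by the study held 28211941 (KO2) and 40471957 (KO4). All 12 muscle fibre markers were abundant, with a summed level of 66935 to 72759 CPM, counts scaled to a common library total, in Shank3Δ11(-/-) mice and 65667 to 74126 CPM in Shank3(+/+) mice. Brown fat also expresses some of these regulators. Of its 8 markers, Ucp1, the defining gene, was at 0 in 6 of 9 mice and never above 0.126 CPM, and Otop1 was at 0 in 8. The other 6 were present in every mouse: Cidea at 8.46 to 22.4 CPM, Dio2 at 3.26 to 10.2, Elovl3 at 3.78 to 6.82, Ppara at 1.02 to 14.6, and Cpt1b and Cox8b, which muscle also expresses, at 52.5 to 99.7 and 39.2 to 82.4 CPM. The 8 summed to 128 to 173 CPM in Shank3Δ11(-/-) mice and 141 to 180.2 CPM in Shank3(+/+) mice, and a part of brown fat in the values was not tested. Shank3 itself, counted over the whole gene and so not only over the deleted part, lay at 25.7 to 35.0 CPM against 32.4 to 38.5 CPM, with a log2 fold change of -0.12 ± 0.11 (SE) over 3 against 4 mice, so the gene count does not check the genotype labels. Transcripts of the Y chromosome were high in KO1, KO2, KO4, WT1 and WT2 and near 0 in the other mice, so both groups mixed sexes. In whole muscle RNA, fewer cells of a type and less RNA per cell cannot be told apart.

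RNA of all 9 regulators was counted in every mouse, from 197 reads for Esrrg to 2370 for Gabpa, and the order of the regulators depended on the gene length used. RPKM is CPM per kilobase, taken here over the union of all exons in GENCODE M21 and, as an alternative chosen after seeing the data, over the longest transcript. By exon union Gabpa stood at 10.9 ± 1.25 RPKM (SD, n = 9), Esrra at 9.33 ± 0.740, Tfam at 8.96 ± 0.982 and Perm1 at 8.82 ± 1.34, with overlapping ranges of neighbours. Ppargc1a at 3.98 ± 0.864, Ppard at 3.82 ± 0.296 and Ppargc1b at 3.70 ± 0.382 RPKM followed without overlap with Perm1, and Nrf1 stood at 2.48 ± 0.267 RPKM. By the longest transcript Esrra came first at 16.5 ± 1.30 RPKM, Ppard stood at 7.71 ± 0.596 and Nrf1 at 6.30 ± 0.679, and the ranges of all neighbours from Esrra to Ppargc1b overlapped. Esrrg was the lowest by either length, at 1.24 ± 0.296 and 1.43 ± 0.342 RPKM, without overlap with its neighbour in the order. Gabpa, Esrra, Tfam and Perm1 were the first 4 genes by both lengths.

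No regulator passed the test between the genotypes. Of the 9 genes, 0 passed the study's criterion of p below 0.05 with a false discovery rate (FDR) below 25% in edgeR's quasi-likelihood test, and the share called among all 21809 genes tested was 0.0%. At an unadjusted p below 0.05 there were also 0, where the share of all genes was 2.08%, and again 0 over all 9 mice, where it was 2.03%. By DESeq2, 6 of all genes and 0 of the 9 were called, and by limma-voom and by limma-trend after quantile normalization 0 of all genes. The study itself reported differentially expressed genes at this criterion with limma. That result was not reproduced here, and the reason was not tested. In no regulator did the mice of the groups fail to overlap, which occurred in 2.83% of all genes over 7 mice and in 0.681% over 9. Fitted differences were small: 2 were higher and 7 lower in Shank3Δ11(-/-) muscle, and the median log2 fold change was -0.04, beside -0.01 for all genes tested. The fit over 9 mice put 3 higher and 6 lower, and the median at -0.05. The 95% intervals show what remained possible, since all 9 lay within 1 log2 unit of 0 and 7 lay within 0.5. Intervals of Ppargc1a and Esrrg reached further.

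**Figure D1:**
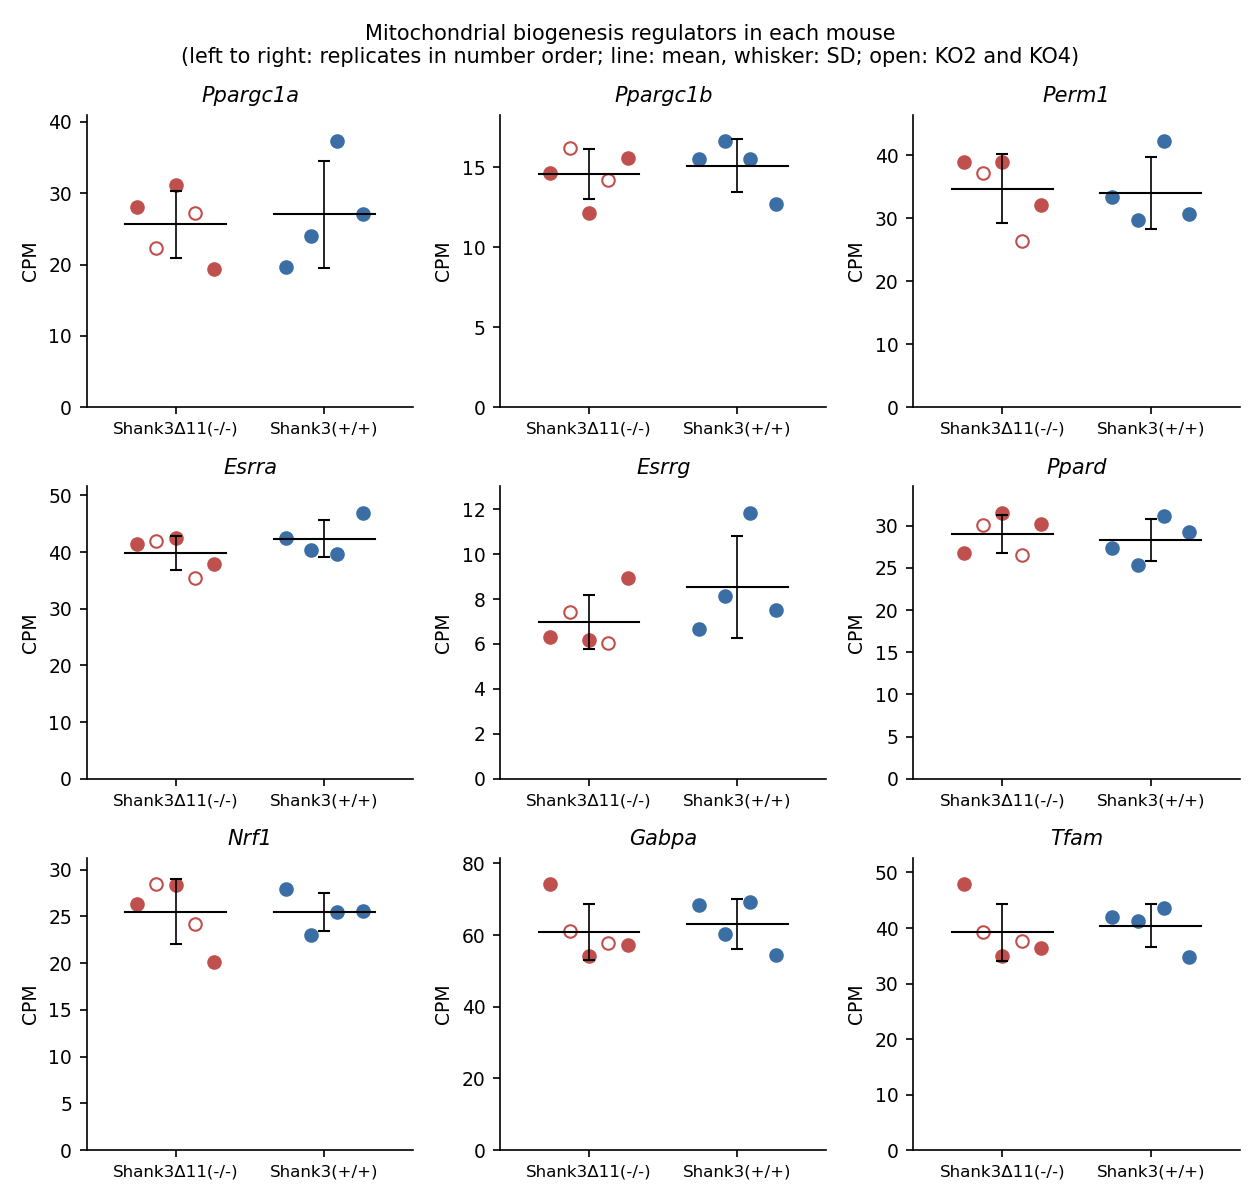
Level of each of the 9 regulators in every mouse, in CPM on axes that start at 0, with Shank3Δ11(-/-) mice in red and Shank3(+/+) mice in blue. Lines and whiskers give the mean and SD over 5 and 4 mice, open circles are KO2 and KO4, and in all 9 panels the groups overlap.

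Positions are those of GENCODE M21 on GRCm38. Among the coactivators, Ppargc1a (ENSMUSG00000029167, chr5:51454250-51567726) encodes PGC-1α, the member of the family most tied to induction of biogenesis. Its level was 28.1 CPM in KO1, 22.4 in KO2, 31.2 in KO3, 27.2 in KO4 and 19.4 in KO5, and 19.7 in WT1, 24.0 in WT2, 37.3 in WT3 and 27.1 in WT4. WT3 was the highest and KO5 the lowest mouse, with WT1 just above it, and 4 of the 5 Shank3Δ11(-/-) mice lay inside the range of the Shank3(+/+) mice. Means were 26.2 ± 6.09 CPM (SD, n = 3) and 27.0 ± 7.46 CPM (n = 4), a log2 fold change of -0.05 ± 0.22 (SE) with a 95% interval from -0.54 to 0.44 (edgeR, FDR 1.00, exact permutation p = 0.886). On the linear scale that interval runs from 0.688 to 1.35 times the Shank3(+/+) level.

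Ppargc1b (ENSMUSG00000033871, on chromosome 18) encodes PGC-1β, a close relative that supports oxidative genes at rest more than on stimulation. It was measured at 14.6, 16.2, 12.1, 14.2 and 15.6 CPM in KO1 to KO5 and at 15.5, 16.6, 15.5 and 12.7 CPM in WT1 to WT4. The groups ran side by side, with KO3 and WT4 low in their own group. The log2 fold change was -0.10 ± 0.14 (SE), with a 95% interval from -0.41 to 0.21 (edgeR, FDR 1.00, exact permutation p = 0.514).

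Perm1 (ENSMUSG00000078486, chr4:156215868-156221307), a muscle-specific coactivator that is induced by PGC-1 and ERR and works with ERRα, had 39.0, 37.2, 38.9, 26.4 and 32.1 CPM in KO1 to KO5 and 33.3, 29.7, 42.2 and 30.7 CPM in WT1 to WT4. WT3 was highest, as for Ppargc1a, and KO4 was lowest. Its log2 fold change of 0.10 ± 0.14 (SE; 95% interval from -0.21 to 0.41, edgeR FDR 1.00) was the highest of the 9 and still below its own standard error.

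Of the nuclear receptors, Esrra (ENSMUSG00000024955, chr19:6910977-6921813) encodes ERRα, the main DNA-binding partner of PGC-1α at oxidative genes. KO1 to KO5 had 41.4, 41.9, 42.5, 35.4 and 37.9 CPM, and WT1 to WT4 had 42.5, 40.4, 39.6 and 46.9 CPM. Levels were held in a narrow band, with KO4 at the bottom and WT4 at the top. The log2 fold change was -0.07 ± 0.11 (SE; 95% interval from -0.31 to 0.16, edgeR FDR 1.00). Esrra shares 73 bases with Trmt112 on the opposite strand, which averaged 16.7 CPM, and the strand setting of the counting is not given in the sources used here.

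Esrrg (ENSMUSG00000026610, chr1:187608791-188214885), for ERRγ, the receptor linked with slow oxidative fibres, showed the greatest fitted difference of the 9, though it was not resolved from 0. Its levels were 6.29, 7.43, 6.20, 6.04 and 8.91 CPM in KO1 to KO5 and 6.65, 8.15, 11.8 and 7.51 CPM in WT1 to WT4. The Shank3(+/+) mean owed much to WT3, while 3 of the 5 Shank3Δ11(-/-) mice lay just under the lowest Shank3(+/+) mouse, KO2 lay among them and KO5 lay above all Shank3(+/+) mice but WT3. Means were 7.13 ± 1.54 CPM (SD, n = 3) and 8.54 ± 2.29 CPM (n = 4). The log2 fold change was -0.27 ± 0.22 (SE; 95% interval from -0.76 to 0.23; edgeR, unadjusted p = 0.257, FDR 1.00; exact permutation p = 0.429). With all 9 mice it was -0.29 (edgeR, unadjusted p = 0.135, FDR 1.00; exact permutation p = 0.214). Without WT3 the 7-mouse value shrank to -0.06 (edgeR, unadjusted p = 0.753), and without KO5 it was -0.46 (edgeR, unadjusted p = 0.0857).

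Ppard (ENSMUSG00000002250, chr17:28232700-28301474) encodes PPARδ, the PPAR of muscle that governs fatty acid oxidation. It had 26.8, 30.1, 31.5, 26.6 and 30.2 CPM in KO1 to KO5 and 27.4, 25.4, 31.1 and 29.3 CPM in WT1 to WT4. It was the steadiest of the 9, with a highest mouse 1.24 times the lowest, and its log2 fold change was 0.05 ± 0.12 (SE; 95% interval from -0.21 to 0.31, edgeR FDR 1.00).

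Nrf1 (ENSMUSG00000058440, chr6:30047988-30153458), the nuclear respiratory factor that drives cytochrome c and other respiratory chain genes, had 26.3, 28.4, 28.3, 24.2 and 20.1 CPM in KO1 to KO5 and 27.9, 23.0, 25.5 and 25.6 CPM in WT1 to WT4. KO5 was the lowest mouse and KO2 and KO3 the highest, so the Shank3Δ11(-/-) mice spread around the Shank3(+/+) mice on both sides. The log2 fold change was -0.04 ± 0.14 (SE; 95% interval from -0.34 to 0.26, edgeR FDR 1.00) and 0.00 with all 9 mice.

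Gabpa (ENSMUSG00000008976, chr16:84834925-84863779) encodes the DNA-binding subunit of GABP, also called nuclear respiratory factor 2. Its levels were 74.2, 61.2, 54.1, 57.9 and 57.3 CPM in KO1 to KO5 and 68.3, 60.4, 69.3 and 54.3 CPM in WT1 to WT4. Tfam (ENSMUSG00000003923, chr10:71225464-71238280), which packages mitochondrial DNA and starts its transcription, had 47.9, 39.3, 34.9, 37.6 and 36.5 CPM in the same Shank3Δ11(-/-) mice and 42.0, 41.3, 43.6 and 34.9 CPM in the same Shank3(+/+) mice. In both genes KO1 was the highest mouse, WT3 and WT1 came next, and KO3 and WT4 were lowest. The log2 fold change was -0.04 ± 0.13 (SE; 95% interval from -0.33 to 0.26) for Gabpa and -0.03 ± 0.13 (SE; 95% interval from -0.33 to 0.26) for Tfam, both at an edgeR FDR of 1.00.

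**Figure D2:**
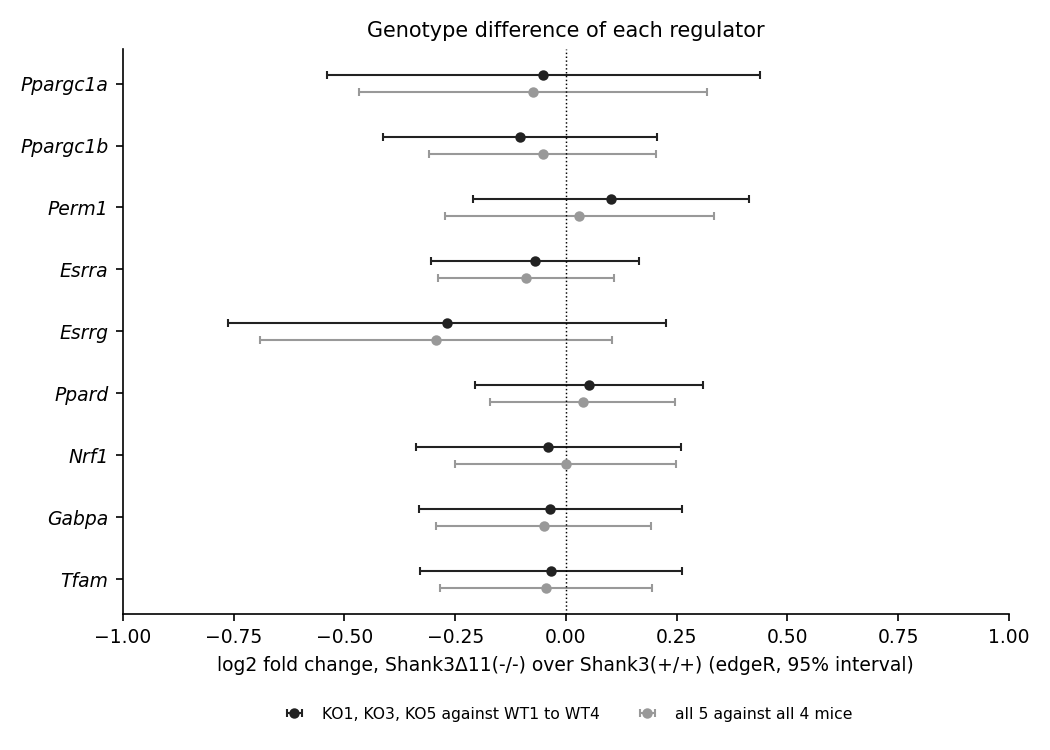
Log2 fold change of each regulator, Shank3Δ11(-/-) over Shank3(+/+), with its 95% interval from edgeR, in black for the 7 mice the study used and in grey for all 9. Every interval includes 0, and that of Esrrg reaches the furthest, to -0.76 over 7 mice.

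The regulators differed in how much they varied between mice. Over the 9 mice the coefficient of variation was 24.0% for Esrrg and 21.7% for Ppargc1a, but 7.93% for Esrra and 7.74% for Ppard. Counting error alone would give 2.26% to 6.47%. The comparison was with 8761 genes of a mean level from that of Esrrg (7.67 CPM) to that of Gabpa (61.9 CPM), whose median was 12.5%. Among these Esrrg varied more than 91.9% and Ppargc1a more than 89.0%. Esrrg stands at the lower end of that range, and its counting error of 6.47% was the largest of the 9, so its rank is not against genes of its own level. The remaining values were 15.2% for Perm1, 11.5% for Gabpa, 11.0% for Tfam, 10.8% for Nrf1 and 10.3% for Ppargc1b. Ppargc1a and Esrrg thus showed about the same span, with the highest mouse at 1.92 and 1.96 times the lowest, and WT3 was the highest mouse for both.

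Covariation over the 9 mice was tested for all 36 pairs with Pearson's r of log2 CPM and an exact permutation test. Of these, 25 were positive and 11 negative, with a median r of 0.205. A single pair passed after adjustment over the 36, Tfam with Gabpa. Its r was 0.968 (exact permutation p = 2.2e-05, adjusted p = 7.94e-04) and its Spearman's rho 0.967 (exact permutation p = 1.65e-04, adjusted p = 0.00595). Without KO1 and WT4, the mice farthest from the median of Tfam, r was 0.935. Leaving out single mice gave r from 0.948 to 0.990, centring within genotype gave 0.967, and the 7 mice of the study gave 0.967. KO1, the highest mouse for both genes, also had the highest sum of 7 erythroid markers, 5780 CPM against 1226 to 2193 CPM in the other mice, and r without KO1 was 0.948. Ranked against all other genes, Gabpa came 2nd of 21734 for Tfam, and Tfam came 1st for Gabpa.

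The other pairs were not resolved from 0 with 9 mice. The next highest r was 0.594 for Perm1 and Ppard (exact permutation p = 0.0929, adjusted p = 0.756). Ppargc1a, the hub of the circuit, had an r of 0.03 with Esrra, 0.13 with Tfam, 0.11 with Gabpa and 0.28 with Nrf1, and its highest was 0.449 with Perm1. Its lowest, and the lowest of all 36, was -0.434 with Ppargc1b (exact permutation p = 0.244). These r were unstable when the 2 mice farthest from the median of the first gene were left out. Esrra with Nrf1 moved from 0.532 (exact permutation p = 0.143) to 0.919 without KO4 and WT4, and Esrra with Esrrg from -0.087 to -0.735. Esrrg with Perm1 moved from 0.316 to -0.738 without KO4 and WT3, and Ppargc1b with Esrra from -0.379 to 0.517 without KO3 and WT4. After regression on the GC and length indices described below, Esrra with Nrf1 was at 0.263.

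**Figure D3:**
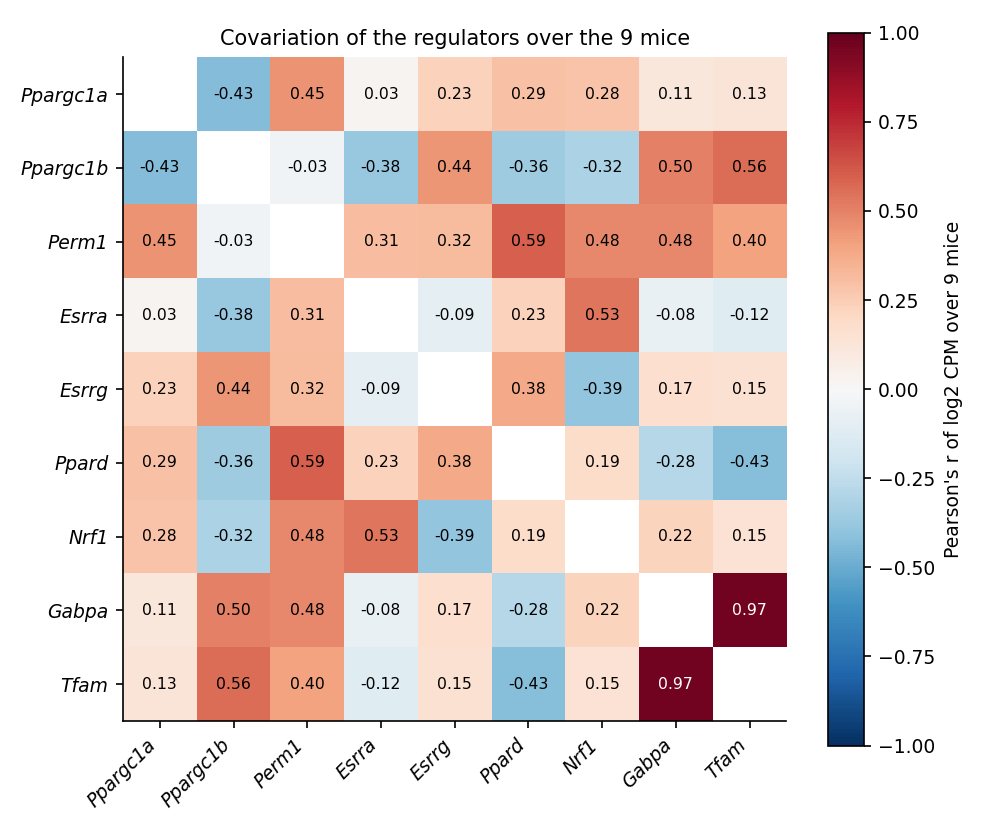
Pearson's r of log2 CPM over the 9 mice for each pair of regulators, from -1 in blue to 1 in red, ordered by role. The pair of Tfam and Gabpa at 0.97 stands apart, and the next highest is 0.59 for Perm1 and Ppard.

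The ETS motif bound by GABP was searched for next to both genes, since GABP is known to act on the Tfam promoter. In RefSeq windows of 250 bases upstream of the start (GRCm38.p6, 12 windows of 8 regulators, Ppargc1b not among them), the letters CCGGAAG on either strand were present for Tfam and Gabpa. They occur in 6.91% of all 32851 windows. The matches with 11 bases on either side are shown 5′ to 3′ on the strand of the gene, with the motif in capitals. Tfam lies on the minus strand and its match, 47 to 41 bases before the RefSeq start, falls in the first exon of the longer GENCODE transcript Tfam-201, in its untranslated part. Gabpa lies on the plus strand and its match, 93 to 87 bases before the RefSeq start, is the reverse complement and falls in exons of Atp5j transcripts on the opposite strand. In GENCODE both genes start further upstream, so the matches lie inside the GENCODE genes, 189 bases after the start for Tfam and 106 for Gabpa.
Tfam, chr10:71238074-71238102: cctgccgcggaCCGGAAGtccgggcttcc
Gabpa, chr16:84835020-84835048: gagggtaagtgCTTCCGGgtccctcagct

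Of the other motifs searched on both strands, the ERR half-site AAGGTCA was present for Perm1 alone, as its reverse complement 202 to 196 bases before the start, and is found in 4.08% of windows. The palindromic NRF1 motif, in 3.74% of windows, and the cyclic AMP response element TGACGTCA, in 1.55%, were in 0 of the 8. These are matches of letters only. Gabpa shares 701 bases with Atp5j, a subunit gene of ATP synthase that was named after its values were seen. Atp5j averaged 169 CPM and had an r of -0.421 with Gabpa over the mice (exact permutation p = 0.266).

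The levels of GC-poor and GC-rich genes, not the base composition of the libraries themselves, were set beside Tfam and Gabpa. An index was formed in each mouse as the mean log2 CPM of genes in the lowest quartile of transcript GC content minus that of the highest, each gene taken relative to its mean over mice. It was 0.128 in KO1, 0.0999 in WT3, 0.0950 in WT1, 0.0843 in WT2, 0.0685 in KO5, 0.00283 in KO4, -0.0587 in KO2, -0.0877 in KO3 and -0.332 in WT4. WT4 stood far below the other libraries, and the mice high in Tfam were those with a high index. Tfam had an r of 0.731 with the index (exact permutation p = 0.0194, adjusted p = 0.299 over 45 relations), a rho of 0.933 (exact permutation p = 7.5e-04, adjusted p = 0.0337) and an r of 0.638 without KO3 and WT4. Gabpa had an r of 0.704 (exact permutation p = 0.0224, adjusted p = 0.299) and a rho of 0.867 (adjusted p = 0.101). Only the rho of Tfam passed adjustment among these 4 values. Transcripts of both are poor in GC, with 44.9% for Tfam and 41.4% for Gabpa beside a median of 49.5% for the genes tested. With an index of short against long transcripts r was -0.683 for Tfam (exact permutation p = 0.0433, adjusted p = 0.346) and -0.735 for Gabpa (exact permutation p = 0.0266, adjusted p = 0.299). Neither passed adjustment. Perm1 and Ppargc1b had a similar r, at -0.642 and -0.628, and the rest lay between -0.359 (Nrf1) and 0.0947 (Ppargc1a).

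After regression on the GC index the r between Tfam and Gabpa was 0.935, after regression on the length index 0.941, and after regression on both 0.929. These residuals were an alternative chosen after seeing the data. The regressions were straight lines, while Tfam followed the GC index more closely by rank (rho 0.933) than by r (0.731). A straight line may thus not remove all of the index, and its part in the pair was not tested. Ppargc1a and Esrrg transcripts are as poor in GC, at 41.7% and 42.5%, and had an r of -0.111 and 0.186 with the GC index. Ppargc1b, the richest of the regulators at 57.8%, had an r of 0.667 (exact permutation p = 0.0480, adjusted p = 0.346), and -0.109 without KO3 and WT4. For Esrra r was -0.598 (exact permutation p = 0.109), for Ppard -0.339, for Nrf1 -0.226 and for Perm1 0.214. Over the 9 mice 55 genes had an r above 0.9 with Tfam, with a median GC content of 41.0%, and 28 had an r below -0.9, with a median of 54.9%. For Gabpa the numbers were 57 genes at 42.3% and 29 at 54.3%, and 32 genes were above 0.9 with both.

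**Figure D4:**
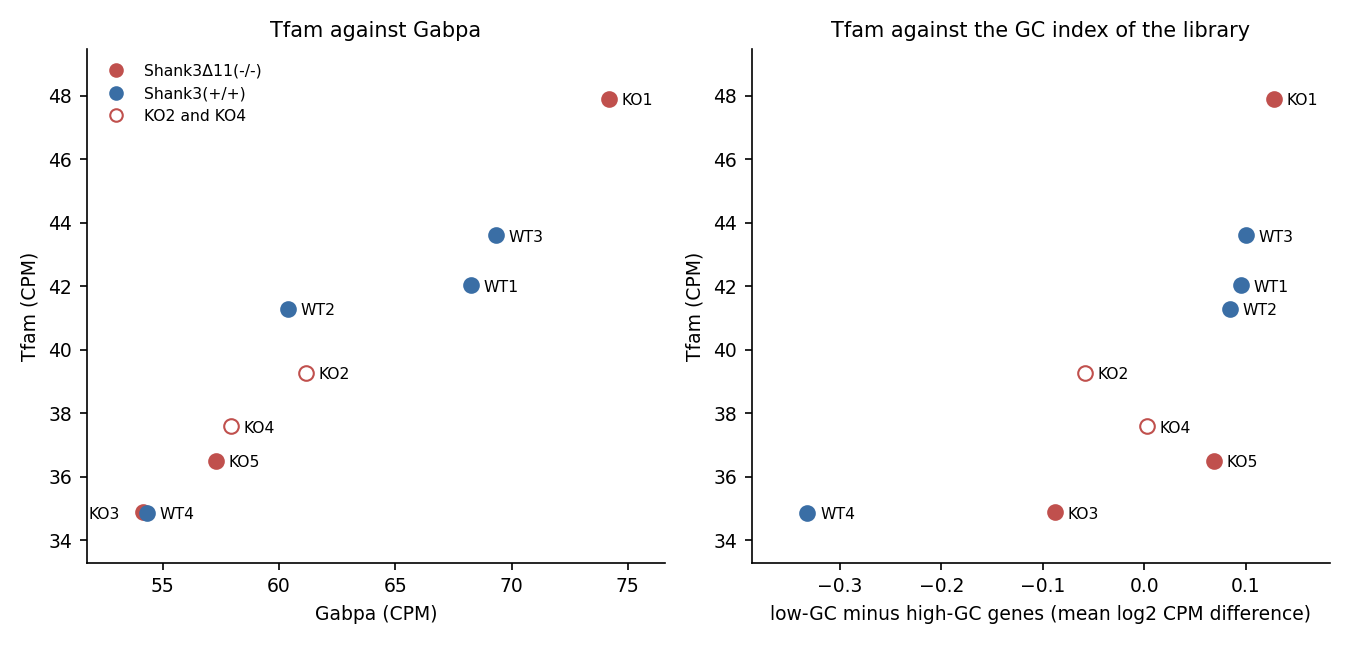
Left, Tfam against Gabpa in CPM, each point a mouse. Right, Tfam against the GC index of each mouse, the log2 difference in level between GC-poor and GC-rich genes. The 9 mice rise together in the left panel from KO3 and WT4 to KO1, and in the right panel WT4 lies apart at -0.332.

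With the 9 regulators themselves left out, the genes most like each regulator over the 9 mice by r were Dusp22 (0.953) and Pawr (0.945) for Ppargc1a, and Slc19a1 (0.964) and Gm7478 (0.957) for Esrra. For Tfam they were Tbc1d15 (0.969) and Tm9sf3 (0.961), and for Gabpa Tbc1d15 (0.962) and Tnks2 (0.960). Perm1 was most like Gm29397 (0.965) and Ankrd6 (0.955), and Ppargc1b most like Gm43513 (0.973) and Taf9b (0.945). Nrf1 paired with Tmem104 (0.953) and Gm11769 (0.952), and Ppard with Sgsm2 (0.945) and Dlgap3 (0.944). Esrrg had no neighbour as close, with Jazf1 at 0.907 and Acad8 at 0.882. Each is the top of a ranking over all genes tested outside the 9, and such r describe 9 libraries only.

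Genes around the regulators were counted by role. Lists for 7 roles held 214 genes, 213 of them tested, and at an unadjusted p below 0.05 there was 1 (0.469%, beside 2.08% of all genes). Of 21 coactivator partners and corepressors 9 were higher and 12 lower, with 0 at p below 0.05 and the median at -0.01 (log2 fold change). Among them Pprc1, the third PGC-1 family gene and named for that role, had a log2 fold change of -0.13 ± 0.16 (SE). Of 32 upstream kinases and signalling genes 17 were higher and 15 lower (0 at p below 0.05, median 0.02). Of 30 genes of mitochondrial DNA replication and transcription 14 were higher and 16 lower (0 at p below 0.05, median 0.00). Polrmt, the mitochondrial RNA polymerase, and Tfb2m, its initiation factor, both named for their role beside Tfam, stood at 0.01 ± 0.14 and 0.00 ± 0.12 (log2 fold change ± SE). Of 32 genes of mitochondrial fusion, fission, import and turnover 13 were higher and 19 lower (0 at p below 0.05, median -0.03).

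Targets of PGC-1 and ERR in muscle, the read-out of the circuit, split almost evenly: of 53 tested 30 were higher and 23 lower, with 0 at p below 0.05 and the median at 0.02 (log2 fold change). The greatest was Angptl4 at 1.15 ± 0.88 (SE). Lpl, which is also on the adipocyte marker list, was highest in KO5 at 833 CPM, and the part of fat tissue in the target values was not tested. The 34 partner receptors and transcription factors split into 16 higher and 18 lower with a median of 0.00. In this list Pparg, the adipogenic PPAR, was at p below 0.05. Its levels were 7.01, 3.12, 4.88, 5.49 and 14.2 CPM in KO1 to KO5 and 3.69, 3.84, 5.29 and 3.84 CPM in WT1 to WT4, so KO5 stood well above the rest and the groups overlapped. Its log2 fold change was 1.05 ± 0.32 (SE; edgeR, unadjusted p = 0.00760, FDR 1.00; exact permutation p = 0.0571), and with all 9 mice 0.73 (edgeR, unadjusted p = 0.0631, FDR 1.00; exact permutation p = 0.214). Without KO5 the 7-mouse value was 0.50 (edgeR, unadjusted p = 0.0520). The 9 adipocyte markers summed to 2101 CPM in KO5, against 647 to 1007 CPM in the other 4 Shank3Δ11(-/-) mice and 672 to 860 CPM in the Shank3(+/+) mice, and the part of fat tissue in the Pparg value was not tested.

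The 13 mitochondrially encoded mRNAs, which are cut from long transcripts of the mitochondrial genome and so not independent, were the list with the largest median, a log2 fold change of 0.27 over 7 mice and 0.35 over 9. All 13 were higher in Shank3Δ11(-/-) mice in both fits, and 0 were at p below 0.05 in either. The value rested much on single mice: without WT2 the median was 0.49 with 10 of the 13 at an edgeR p below 0.05, and without KO5 it was 0.15 with 0. Of all genes, 545 of 21531 were at p below 0.05 without WT2 and 224 of 22230 without KO5. In a fit with the replicate number as a block, 12 of the 13 were at an edgeR p below 0.05 over the 7 mice, 1 of them called, with a median of 0.35, and 2 were at p below 0.05 over 9 mice with a median of 0.29. Of all 21809 genes, 844 were at p below 0.05 in the block fit over 7 mice and 9 were called, beside 453 and 0 without the block. The share of all counts from the mitochondrial genome was 5.17, 3.98, 5.42, 7.88 and 6.52% in KO1 to KO5 and 4.21, 6.54, 4.36 and 3.81% in WT1 to WT4. KO4 was the highest, but WT2 was above 4 of the 5 Shank3Δ11(-/-) mice and KO2 was below 3 of the 4 Shank3(+/+) mice. Tfam had an r of -0.175 with these mRNAs over the mice (exact permutation p = 0.649). Esrra ran against them, with an r of -0.768 (exact permutation p = 0.0132) and a rho of -0.700 (exact permutation p = 0.0433). Neither passed adjustment over the 45 relations (adjusted p = 0.299 and 0.324), and r was -0.60 without KO2 and KO4. Esrra was not alone, since Nrf1 had an r of -0.612 and a rho of -0.717 (exact permutation p = 0.0756 and 0.0369, adjusted p = 0.346 and 0.324). Perm1 had an r of -0.606 and Ppard one of -0.439, and only Ppargc1b was not negative (0.0151). Against the mean of the PGC-1 and ERR targets, Ppargc1a had an r of -0.508 (exact permutation p = 0.164) and Esrra one of 0.064 (exact permutation p = 0.873).

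**Figure D5:**
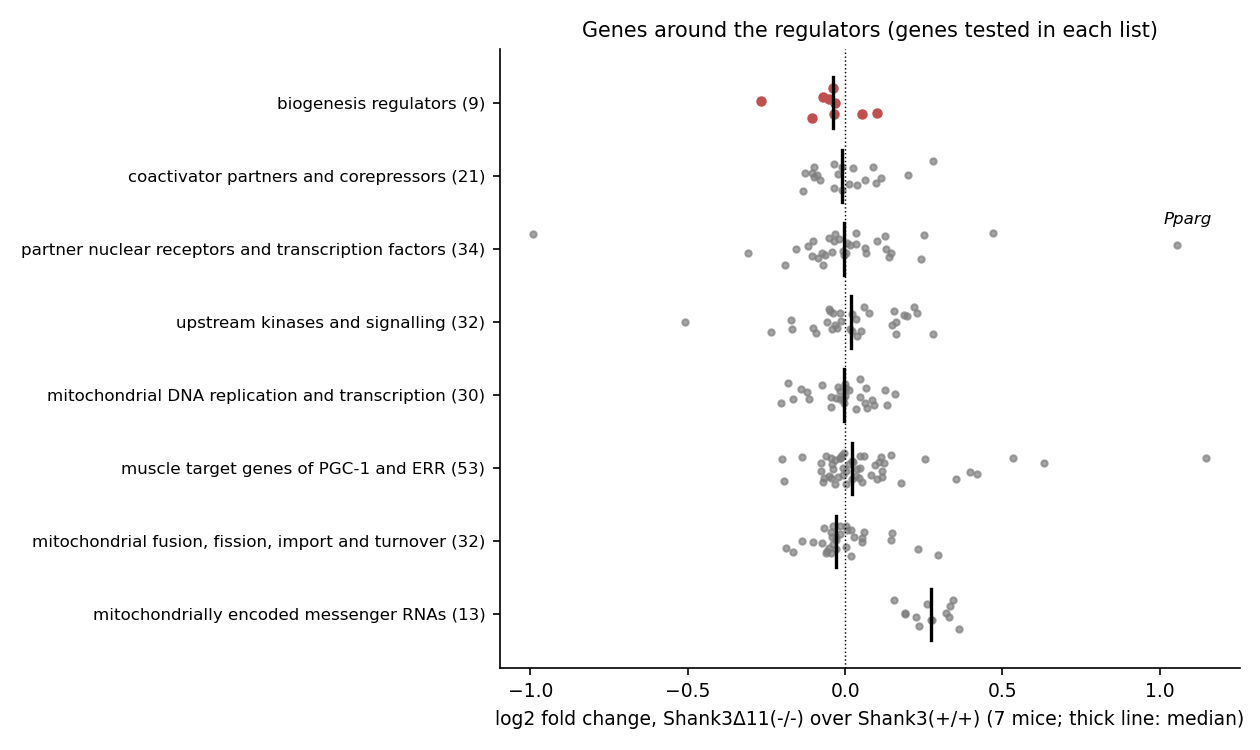
Log2 fold change over 7 mice of each gene tested in the 7 lists around the regulators, with the 9 regulators in red at the top and thick lines at the medians. The medians lie between -0.04 and 0.02 except for the mitochondrially encoded mRNAs at 0.27, and Pparg at 1.05 is the only listed gene at an unadjusted p below 0.05.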

How the data were processed

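RNA of the gastrocnemius of 9 mice was sequenced, 1 library each. The deposited values are raw counts of reads per Ensembl gene: the authors aligned reads with HISAT2 to mm10 (GRCm38), retained concordant alignments and counted with featureCounts of the Subread package. Sources used here do not give the annotation release or the strand setting. Symbols were found for 55144 IDs and GENCODE M21 positions for 55230. Genes were filtered with filterByExpr (minimum count 10, minimum total 15), leaving 21809 genes for 7 mice and 21735 for 9, and tested in edgeR 4.0.16 (R 4.3.3) with TMM factors, robust quasi-likelihood and Benjamini-Hochberg adjustment. Levels are CPM on TMM-scaled totals, and correlations use log2 CPM (prior count 2). Permutation tests were 2-sided. Those of the genotype difference had a smallest possible p of 0.0286 for 7 mice and 0.00794 for 9. Those of correlation ran over all 362880 orders of the 9 mice. Scripts were tested on simulated data. Alternatives were DESeq2 1.42.0, limma 3.58.1 (voom and trend), other scalings, no filter, Y-linked and replicate terms, and each mouse left out. A GC offset was added after seeing the data. Members and lists were chosen with earlier results of these data known. Named were the 9 members, the 2 most alike genes of each, and listed genes at p below 0.05, at most 3 per direction. Intervals cover model error only. Of the marker lists of other cell types, the summed level in KO1 stood apart for erythroid genes (5780 CPM, the others at most 2193 CPM) and in KO4 for cartilage and bone genes (285 CPM, the others at most 134 CPM). For brown adipocytes the sum was at most 180.2 CPM, for heart muscle 305 CPM, for macrophages 258, for endothelial cells 994, for fibroblasts 22255, for Schwann cells 796, for keratinocytes 66.0 and for satellite cells and myoblasts 856 CPM.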

Additional observations from a re-analysis of the deposited data

How the results depend on the processing

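No regulator was called under any of 22 alternatives, and 179 of 198 refitted log2 fold changes of single regulators kept their direction. The other 19 turned sign. For Ppargc1a these were 0.12 with the replicate block over 7 mice and 0.036 over 9, for Esrra 0.027 and for Ppard -0.0091 with the block over 7 mice, for Nrf1 0.031 and 0.074 with the block over 7 and 9 mice and 3.83e-05 with all 9 mice, and for Tfam 0.0024 with a Y-linked covariate over 7 mice. Leaving out single mice gave -0.19 to 0.15 for Ppargc1a, -0.19 to 0.053 for Tfam, -0.14 to 0.090 for Nrf1, -0.18 to 0.052 for Gabpa and -0.46 to -0.06 for Esrrg.

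The labels tie no replicate number to a shared litter or day, and the mice were treated as unpaired. Deviations of same-numbered mice correlated at 0.373, 0.0524, 0.357 and 0.101, and 5 of 8 mice correlated best with their own number, a hint of pairing from the data and not from the design. With the replicate block 1 regulator, Esrrg, was at an unadjusted p below 0.05 over 7 mice (log2 fold change -0.52 in edgeR) and 1, again Esrrg, over 9 (-0.37). The block also changed the count over all genes. Over 7 mice 844 of 21809 genes were at p below 0.05 with it, beside 453 in the reported test. Over 9 mice there were 452 of 21735 with it, beside 442 without. Of the listed genes, 1 was at p below 0.05 in the reported test, 15 with the replicate block over 7 mice, of which 1 was called, and 7 with the block over 9. The number was 2 with all 9 mice, with RLE or upper quartile scaling, with a Y-linked covariate over 9 mice and with a GC offset over 7 mice, 3 without a filter and with a GC offset over 9 mice, and 4 with DESeq2 and with a Y-linked covariate over 7 mice. Leaving out single mice gave 1 to 12. Of the 15, 12 were mitochondrially encoded mRNAs. Pparg was at a log2 fold change of 0.40 with the block over 7 mice and 0.27 over 9, and did not pass p below 0.05 in either.

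The count of pairs that covaried was 2 after regression on the Y-linked level, where Ppargc1b and Esrrg had an r of 0.887, and 1 under the other 17 alternatives. By the longest transcript in place of the exon union, 4 of 9 RPKM values moved beyond their SD. The cause of the other moves was not tested. With 3 and 4 mice, changes smaller than the intervals given could not be seen.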
